A study of Mus musculus with 70 samples.

Results

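The tripartite motif (Trim) family was followed across 8 mouse cancer cell lines grown with interferon beta (IFNb), with interferon gamma (IFNg) or unstimulated (NS). Members were the genes whose symbol is Trim, a number and at most 1 letter, which picked out 68 of the 35197 genes of the count table. Of these, 59 reached at least 10 counts summed over at least 1 group of line and treatment and are called measured. A filter on low counts kept 56 of them for testing, among 16147 genes in all. The measured members Trim9, Trim38 and Trim43c did not pass that filter. The 9 members under 10 counts in every group were Trim31, Trim42, Trim43a, Trim50, Trim55, Trim58, Trim60, Trim61 and Trim75.

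TRIM proteins share a RING domain, B-boxes and a coiled coil, and most act as E3 ubiquitin ligases. The C-terminal domain differs between members and sets the target: a B30.2 (SPRY) domain in the restriction factors and sensors, a PHD finger and bromodomain in the chromatin regulators, and NHL repeats in a small group bound to RNA and development. Part of the family belongs to the interferon system. Both interferons signal through JAK kinases to transcription factors in the nucleus. Genes induced by IFNb mainly carry the interferon-stimulated response element (ISRE), and genes induced by IFNg also carry the gamma-activated site (GAS).

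The lines were the melanomas B16.1 and YUMMER1.7, the colorectal lines CT26.2 and MC38.7, the pancreatic lines KPC.2 and Panc02.3, the lung line LLC and the renal line Renca. CT26.2 and Renca are from BALB/c mice and the others from C57BL/6 mice. IFNb was given at 1000 activity units per mL and IFNg at 100 ng per mL, each for 48 h and at 1 dose, so the cytokines were compared at doses given in different units. There were 24 IFNb, 23 IFNg and 23 NS libraries, 3 in each of 22 groups and 2 in LLC with IFNg and in Renca NS. The labels do not say that replicates were separate cultures, so the p-values speak only of library-to-library spread, and part of that may be technical. Each label names a single line, so every line is 1 example of its cancer and strain. In cultures of this kind, fewer cells that express a gene and less RNA per cell cannot be told apart.

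Libraries held between 668355 counts (KPC.2 with IFNb, replicate 3) and 28550816 counts (MC38.7 with IFNg, replicate 3), with a median of 8644887. A count of 0 allows up to 3 counts, which is between 0.0389 and 0.335 CPM (counts per 1e6 counts of a library, after scaling) here, and covers counting error only. B16.1 and KPC.2 carried every marker listed for their tissue. In YUMMER1.7, Mlana was at 0 in every group and the melanocyte markers summed to between 15 and 25.8 CPM, against between 9124 and 20390 CPM in B16.1. The colorectal markers summed to between 0.524 and 1.35 CPM in MC38.7 and between 33.5 and 47.6 CPM in CT26.2. Epcam was at 0 in CT26.2, MC38.7, Panc02.3 and LLC, Cdx1 was also at 0 in CT26.2, and Nkx2-1 and Sftpc were also at 0 in LLC. Leukocyte markers summed to between 2.93 and 141 CPM with IFNb, 6.55 and 129 CPM with IFNg, and 0.862 and 180 CPM in NS groups. Fibroblast markers summed to between 2835 and 3452 CPM in YUMMER1.7 and between 2040 and 2329 CPM in CT26.2, and to at most 407 CPM in the other lines. The part of the leukocyte and fibroblast markers in the results was not tested.

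A block of 10 members lies on mouse chromosome 7 and holds the relatives of the primate restriction factor TRIM5. In GRCm38 it runs from Trim6 at chr7:104218793-104235152 and Trim34a at chr7:104244457-104262234 through Trim5, Trim12a, Trim34b, Trim12c, Trim30b and Trim30c to Trim30a at chr7:104409025-104465193 and Trim30d at chr7:104470014-104507849. Promoters of 300 bases, 250 before and 50 after the annotated start, were taken from RefSeq on GRCm38.p6 and read on both strands for the ISRE core (GAAA, any 2 bases, GAAA) and the GAS core (TTC, any 3 bases, GAA). The stretches around the ISRE core are shown for the 7 members at least 2-fold higher with either cytokine whose promoter holds it, and for Trim26, which changed less. Each is printed 5′ to 3′ on the strand of its gene, with the bases of the core, or of 2 overlapping cores, in capitals.
Trim30a: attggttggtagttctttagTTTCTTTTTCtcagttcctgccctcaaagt
Trim30d: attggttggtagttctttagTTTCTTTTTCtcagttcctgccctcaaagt
Trim12c: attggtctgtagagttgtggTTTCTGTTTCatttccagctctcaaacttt
Trim5: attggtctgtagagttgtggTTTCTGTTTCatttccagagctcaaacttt
Trim12a: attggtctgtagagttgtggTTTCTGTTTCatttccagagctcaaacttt
Trim34a: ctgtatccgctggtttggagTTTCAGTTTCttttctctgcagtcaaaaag
Trim21: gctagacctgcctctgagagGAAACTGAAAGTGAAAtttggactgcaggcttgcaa
Trim26: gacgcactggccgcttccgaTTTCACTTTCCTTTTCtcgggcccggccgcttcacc

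These stretches lie at chr7:104465200-104465249 on the minus strand (Trim30a), chr7:104507861-104507910 on the minus strand (Trim30d) and chr7:104353349-104353398 on the minus strand (Trim12c). Those of Trim5 at chr7:104288126-104288175 and Trim12a at chr7:104315456-104315505 are also on the minus strand, and that of Trim34a at chr7:104244447-104244496 is on the plus strand. Outside the block, Trim21 was read at chr7:102565434-102565489 on the minus strand and Trim26 at chr17:36836966-36837021 on the plus strand. The Trim30a and Trim30d stretches were identical at 50 of 50 bases, those of Trim12c and Trim5 at 48, those of Trim12c and Trim12a at 48, and those of Trim30a and Trim12c at 26. The core began 36 bases before the annotated start in Trim30a (position -36, with 0 at the start) and at -41 in Trim30d, -29 in Trim12c and -49 in Trim5. It began after the start, at 10, in both Trim12a and Trim34a, at 13 in Trim21, and at -160 in Trim26.

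The ISRE core was present in 7 of the 13 members with a promoter that were at least 2-fold higher with either cytokine on the mean of lines (53.8%), namely Trim5, Trim12a, Trim12c, Trim21, Trim30a, Trim30d and Trim34a. It was present in 2 of the other 33 measured members with a promoter (6.06%), Trim2 and Trim26, and in 1079 of 27025 promoters of all genes (3.99%). The GAS core was present in 2 of the same 13 (15.4%), in 3 of the other 33 (9.09%) and in 9.55% of all promoters. The 7 ISRE matches were not 7 separate sequences. The Trim30a and Trim30d stretches were identical, and those of Trim5 and Trim12a each matched that of Trim12c at 48 of 50 bases. A match describes these letters only, and a missing match says only that the letters are not in this window.

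Unstimulated levels differed between lines for each of the 56 tested members, where 96.5% of all tested genes did (edgeR's quasi-likelihood test, Benjamini-Hochberg adjusted over all tested genes, as for every adjusted p below). Per kilobase of the longest coding transcript, the highest members over NS groups were Trim28 at 117 CPM per kb, Trim35 at 55.6, Trim8 at 38.2, Trim59 at 24.1 and Trim26 at 22.6, followed by Trim25 at 20.6. Trim28, the corepressor of KRAB zinc finger proteins, ranged from 83.8 CPM per kb in Renca to 158 CPM per kb in B16.1. Trim25, the ligase that ubiquitinates RIG-I, ranged more widely, from 1.14 CPM per kb in B16.1 to 36.6 CPM per kb in YUMMER1.7. Of the 68 members, 17 were above 10 CPM per kb on the mean of lines, 22 between 1 and 10, and 29 below 1.

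The chromosome 7 block varied widely between unstimulated lines. NS cells of YUMMER1.7 averaged 221 ± 28.2 CPM of Trim30a (SD, n = 3) and those of CT26.2 105 ± 15.6 CPM (SD, n = 3). Renca averaged 53 ± 5.28 CPM (SD, n = 2) and Panc02.3 20.8 ± 1.92 CPM (SD, n = 3). B16.1 and LLC averaged 2.55 ± 0.172 and 2.18 ± 0.203 CPM, and KPC.2 and MC38.7 0.139 ± 0.241 and 0.14 ± 0.103 CPM (SD, n = 3 each). KPC.2 and MC38.7 lay within their spread of each other, and single libraries of B16.1 and LLC overlapped. Trim12c followed the same order at the top, with 88.1 ± 9.67 CPM in YUMMER1.7, 62.9 ± 6.88 CPM in CT26.2 (SD, n = 3 each) and 40.1 ± 0.907 CPM in Renca (SD, n = 2), and was lowest in B16.1 at 0.965 ± 0.433 CPM (SD, n = 3). Other members were high in 1 to a few lines. Trim63, a muscle RING-finger ligase, averaged 48.2 ± 1.81 CPM in B16.1 and 5.33 ± 1.24 CPM in Renca (SD, n = 3 and n = 2), and at most 0.119 CPM in the other lines. Trim72, a membrane repair protein of muscle, averaged 21.5 ± 4.62 CPM in Renca (SD, n = 2) and at most 1.64 CPM elsewhere. Trim71, an NHL protein of stem cells, was highest in YUMMER1.7 at 23.2 ± 2.78 CPM (SD, n = 3), averaged 6.23 ± 1.04 CPM in LLC (SD, n = 3) and was at 0 in all 9 Panc02.3 libraries. Trim34b averaged 19.9 ± 2.11 CPM in CT26.2 (SD, n = 3) and 5.65 ± 1.22 CPM in Renca (SD, n = 2) and at most 0.326 CPM in the C57BL/6 lines, where strain and line cannot be told apart.

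**Figure D1:**
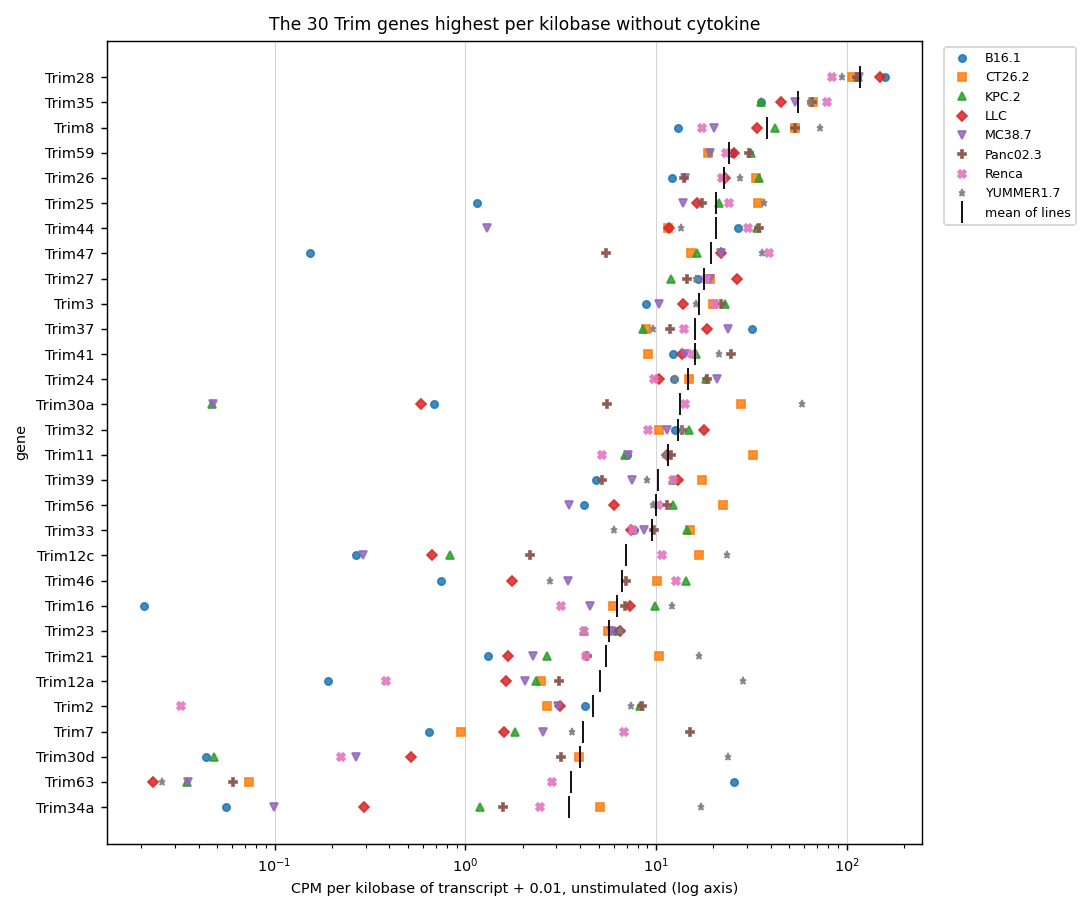
Unstimulated level of the 30 Trim members highest per kilobase (rows), in CPM per kb + 0.01 on a log axis; each point is the mean of the NS libraries of 1 line and each black tick the mean of lines. Trim28 leads with a narrow range across lines (83.8 to 158 CPM per kb), while Trim30a spans from 0.0369 CPM per kb in KPC.2 to 58.5 in YUMMER1.7.

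With IFNb, 18 of the 56 tested members rose on the mean of the 8 lines and 2 fell, where 13% of all tested genes rose and 17.3% fell. At 2-fold or more, 11 members rose and 0 fell, against 1.44% and 0.248% of all tested genes. The chromosome 7 block gave 8 of the rises among its 10 members, and the group of sensing and antiviral signalling 6 among its 13 tested members. The chromatin group gave 1 of 5 (Trim27), the cytoskeleton and muscle group 0 of 6, the NHL group 0 of 3, and the other members 3 of 19. Each member was placed in 1 group only. The NHL group was Trim2, Trim3 and Trim71, and Trim32 was counted in the sensing group. The falls, in Trim3 (log2 fold change -0.21 ± 0.03) and Trim41 (-0.11 ± 0.03, SE), were small and were named after their values were seen. Trim41 lost its call without replicate 1 and without replicate 2, and Trim27 without replicate 2 and without replicate 3.

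Trim30a, described in mouse macrophages as an inhibitor of Toll-like receptor signalling through TAB2 and TAB3, changed most on the mean of lines. In MC38.7 it measured 137, 156 and 134 CPM with IFNb, against 0.0717, 0.259 and 0.0902 CPM in NS cells. In KPC.2 it measured 71.3, 78.7 and 42.1 CPM with IFNb, against 0.417, 0 and 0 CPM in NS cells, the lowest IFNb value being that of the shallowest library. LLC gave 323, 300 and 304 CPM with IFNb, against 1.98, 2.38 and 2.17 CPM in NS cells. In all of these lines the groups were far apart and the NS libraries were near the floor of detection or a few CPM. B16.1 gave 180, 184 and 187 CPM with IFNb, against 2.37, 2.59 and 2.71 CPM in NS cells. Panc02.3 gave 136, 150 and 156 CPM with IFNb, against 20, 23 and 19.4 CPM in NS cells. Renca gave 134, 130 and 130 CPM with IFNb, against 56.7 and 49.3 CPM in NS cells. The IFNb levels of these 6 lines therefore lay between 42.1 and 323 CPM, while their NS levels ran from 0 to 56.7 CPM. CT26.2 gave 167, 155 and 150 CPM with IFNb, against 121, 103 and 90.2 CPM in NS cells, also without overlap. YUMMER1.7 gave 218, 217 and 223 CPM with IFNb, against 253, 209 and 200 CPM in NS cells, and was the line whose groups overlapped.

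The log2 fold change of Trim30a with IFNb was 9.90 ± 0.23 in MC38.7, 8.67 ± 0.33 in KPC.2, 7.13 ± 0.14 in LLC and 6.16 ± 0.16 in B16.1 (SE). It was 2.84 ± 0.11 in Panc02.3, 1.31 ± 0.11 in Renca, 0.59 ± 0.10 in CT26.2 and -0.01 ± 0.09 in YUMMER1.7, where it did not pass the test. The mean over lines was 4.57 ± 0.06 (SE, adjusted p = 2.1e-54), and the lines differed from each other (adjusted p = 1.5e-44).

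**Figure D2:**
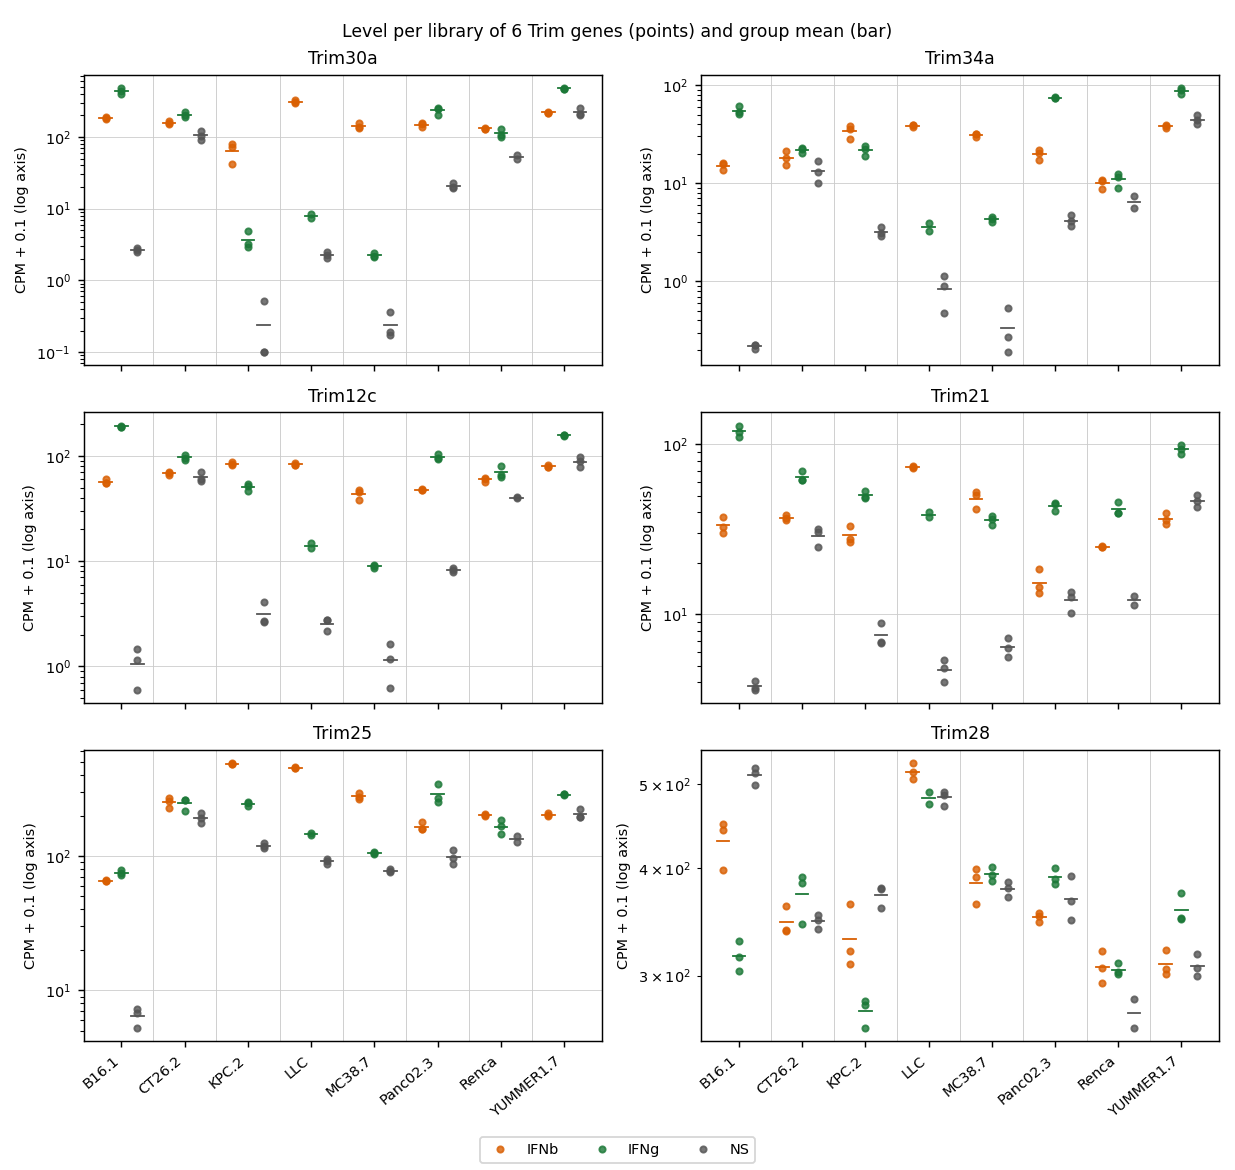
Level of Trim30a, Trim34a, Trim12c, Trim21, Trim25 and Trim28 in every library (CPM + 0.1, log axis) by line and treatment; points are libraries and bars are group means. Trim30a sat between 42.1 and 323 CPM with IFNb in every line, while its NS level ran from 0 to 253 CPM. Trim28 ranged from 261 to 521 CPM in B16.1 and KPC.2, where it was lower with IFNg than in NS cells.

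Trim30d, a close relative of Trim30a, rose in the same 7 lines. It measured 29.5, 25 and 32.6 CPM with IFNb in B16.1, against 0, 0.123 and 0.208 CPM in NS cells. In Renca it measured 9.47, 9.66 and 8.38 CPM with IFNb, against 0.742 and 0.654 CPM in NS cells. The Renca change of 3.69 ± 0.28 on the log2 scale (SE) stood above that of Trim30a in the same line, and the CT26.2 change of 1.57 ± 0.14 (SE) was the only rise of 2-fold or more among the members in that line. The mean over lines was 4.28 ± 0.08 (SE, adjusted p = 2.0e-47).

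Trim34a and Trim12c, for which TRIM34 and TRIM5 are the human relatives, came next once Trim30c, whose mean rests on groups at 0 counts, is set aside. Trim34a measured 31.7, 31.6 and 29.5 CPM with IFNb in MC38.7, against 0.43, 0.173 and 0.0902 CPM in NS cells. Trim12c measured 81.3, 84.8 and 82.3 CPM with IFNb in LLC, against 2.64, 2.06 and 2.67 CPM in NS cells. Neither pair of groups overlapped. On the mean of lines Trim34a changed by 3.28 ± 0.07 (SE, adjusted p = 8.1e-43) and Trim12c by 3.02 ± 0.04 (SE, adjusted p = 4.3e-52) on the log2 scale. By line, Trim12c ran from 5.85 ± 0.16 in B16.1, 5.40 ± 0.15 in MC38.7, 5.08 ± 0.11 in LLC and 4.73 ± 0.15 in KPC.2 to 2.55 ± 0.11 in Panc02.3 and 0.57 ± 0.09 in Renca (SE). It did not pass the test in CT26.2, with 66.5, 68.2 and 70.5 CPM with IFNb and 59.7, 58.2 and 70.8 CPM in NS cells, or in YUMMER1.7, with 78.6, 82.1 and 78.9 CPM with IFNb and 97.4, 88.8 and 78.1 CPM in NS cells.

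Trim12a rose by 2.11 ± 0.11 and Trim5 by 1.78 ± 0.17 on the mean of lines (log2, SE). Trim12a was the 1 member with rises and a fall of 2-fold or more with IFNb, where 0.434% of all tested genes had both. In CT26.2 it measured 0.942, 2.41 and 2.63 CPM with IFNb, against 3.02, 3.37 and 5.06 CPM in NS cells, a change of -1.14 ± 0.34 (log2, SE, adjusted p = 0.049). The CT26.2 fall was lost without a filter on low counts, with limma-voom and with that line fitted alone, at values between -1.11 and -1.06, and without each replicate number, at values between -1.48 and -0.79. In 5 other lines it rose by 2-fold or more, by between 1.33 ± 0.16 in Panc02.3 and 5.47 ± 0.29 in B16.1 (log2, SE). Trim5 stayed low in level: in MC38.7 it measured 4.48, 4.04 and 2.58 CPM with IFNb, against 0.0717, 0.0864 and 0.361 CPM in NS cells.

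The remaining members of the block were near 0 in many groups. Trim30c had 67 counts with IFNb and 0 in NS cells of LLC, at least 28.4-fold higher, and 47 counts with IFNb and 0 in NS cells of MC38.7, at least 15.8-fold higher (floor of 3 counts over the group). Its mean over lines of 3.13 ± 0.51 (log2, SE) rests on such groups, depends on the prior count and is no bound, and its call was lost without replicate 1 and without replicate 2. Trim30b rose in LLC (2.59 ± 0.72) and MC38.7 (2.91 ± 0.65, log2, SE), and its mean of 0.88 ± 0.33 lost its call without replicate 2 (0.47) and without replicate 3 (0.74). Its mean with IFNg of 0.89 ± 0.31 (log2, SE) lost its call without each replicate number. Trim34b had 12 counts with IFNb and 0 in NS cells of LLC, at least 5.09-fold higher. Trim6, a ligase that makes unanchored ubiquitin chains for IKK-epsilon, rose by 1.42 ± 0.34 in LLC and fell by 0.85 on the log2 scale in MC38.7 (SE 0.33, adjusted p = 0.043). In LLC it measured 6.38, 8.61 and 6.07 CPM with IFNb, against 3.74, 1.46 and 2.73 CPM in NS cells. In MC38.7 it measured 4.48, 6.03 and 2.11 CPM with IFNb, against 7.89, 8.64 and 8.57 CPM in NS cells, again without overlap.

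At 2-fold or more, IFNb raised all 10 members of the block in LLC, 9 in MC38.7, 6 each in B16.1, KPC.2 and Panc02.3, 2 in Renca, 1 in CT26.2 and 0 in YUMMER1.7. In LLC, Trim30b lost its call without replicate 1, Trim6 and Trim34b without replicate 2, and Trim34b with that line fitted alone. The Trim34b call in MC38.7 was lost without replicate 1, without replicate 3 and with that line fitted alone, and the Trim5 calls in B16.1, KPC.2 and Panc02.3 without replicate 2. The median log2 fold change of its measured members was 5.70 in B16.1, 4.57 in LLC, 4.31 in MC38.7 and 3.46 in KPC.2. It was 2.08 in Panc02.3, 0.65 in Renca, 0.15 in CT26.2 and -0.17 in YUMMER1.7, where the median of all genes lay between -0.039 and 0.006 in every line.

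Among the sensing members, Trim21, the cytosolic receptor for antibody-coated virus, rose by 1.69 ± 0.04 with IFNb on the mean of lines (log2, SE, adjusted p = 5.9e-39). It measured 75, 72.5 and 73.3 CPM with IFNb in LLC, against 3.88, 5.31 and 4.72 CPM in NS cells. In YUMMER1.7 it measured 33.8, 36 and 39.3 CPM with IFNb, against 50.3, 42.9 and 46.4 CPM in NS cells. The LLC change was 3.97 ± 0.11 (log2, SE), and the YUMMER1.7 libraries with IFNb all lay below their NS libraries, a change of -0.35 ± 0.09 (log2, SE, adjusted p = 0.029). Trim25 (chr11:88999376-89020293) rose by 1.41 ± 0.03 on the mean of lines (log2, SE, adjusted p = 5.5e-43). It measured 488, 486 and 483 CPM with IFNb in KPC.2, against 119, 125 and 114 CPM in NS cells. In B16.1 it measured 66.4, 64.6 and 64.8 CPM with IFNb, against 7.23, 5.17 and 6.66 CPM in NS cells. B16.1 thus had the largest fold change in Trim25 (3.36 ± 0.13, log2, SE), at an IFNb level below the NS level of every other line.

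Trim14, a RING-less adaptor of the mitochondrial MAVS complex, rose by 1.47 ± 0.08 on the mean of lines (log2, SE, adjusted p = 8.4e-23). It measured 6.66, 6.03 and 7.03 CPM with IFNb in MC38.7, against 0.43, 0.864 and 0.541 CPM in NS cells, and 33.1, 37.7 and 43.5 CPM with IFNb in KPC.2, against 9.04, 8.51 and 8.45 CPM in NS cells. Of its sequence, 36.4% of 31-base words are shared with other genes, mostly the overlapping gene Nans, so part of its reads could be assigned either way. Trim56 and Trim26, a cytosolic antiviral ligase and a regulator of IRF3, changed less, by 0.48 ± 0.03 and 0.45 ± 0.02 (log2, SE). The largest IFNb changes were 1.26 ± 0.09 for Trim56 in MC38.7 and 1.20 ± 0.06 for Trim26 in LLC (log2, SE). Trim69, described in human cells as acting on viral replication and microtubules, had 12 counts with IFNb and 0 in NS cells of B16.1, at least 4.54-fold higher. Its 2-fold call there was lost with the line fitted alone, without replicate 1 and without replicate 3. In MC38.7 Trim69 had 93 counts with IFNb and 23 in NS cells, with a 2-fold call that was lost without replicate 2. Its mean over lines of 1.82 ± 0.42 (log2, SE) depends on the prior count and is no bound. Of the 13 tested sensing members, 7 did not rise on the mean of lines, namely Trim13, Trim15, Trim23, Trim29, Trim32, Trim40 and Trim65. The group's median by line ran from 1.21 in LLC and 0.92 in MC38.7 to -0.03 in CT26.2 and -0.05 in YUMMER1.7 (log2).

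Among the chromatin regulators, Trim66 was called at least 2-fold higher with IFNb in LLC and B16.1, at low levels. In LLC it measured 2.18, 2.15 and 1.63 CPM with IFNb, against 1.03, 0.813 and 0.869 CPM in NS cells, a change of 1.12 ± 0.28 (log2, SE, adjusted p = 8.9e-04). In B16.1 it had 5 counts with IFNb and 0 in NS cells, a bound of at least 1.89-fold higher. That call was lost without each replicate number and with the line fitted alone. Trim28 measured 442, 449 and 398 CPM with IFNb in B16.1, against 521, 515 and 499 CPM in NS cells, a change of -0.25 ± 0.05 (log2, SE). Among the NHL proteins, Trim2 (named after its values were seen) changed by -0.75 ± 0.09 in LLC (log2, SE).

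Within lines, IFNb raised 16 members at least 2-fold in MC38.7, 15 in LLC, 12 in B16.1 and 9 in KPC.2, where 3.31%, 4.62%, 3.6% and 1.24% of all tested genes rose as far. It lowered 0 members as far in these lines, against 0.979%, 2.43%, 0.83% and 0.105%. It raised 6 in Panc02.3, 3 in Renca and 1 in CT26.2, against 1.08%, 0.687% and 0.248% of tested genes. In Panc02.3 and Renca it lowered 0, against 0.229% and 0.743%. The 1 fall of 2-fold or more was Trim12a in CT26.2, where 0.118% of tested genes fell as far. In YUMMER1.7, 0 members rose or fell 2-fold, where 0.0557% of tested genes rose and 0.111% fell, and the count was also 0 with DESeq2 and with limma-voom. Among the 16 in MC38.7, Trim10 had 5 counts with IFNb and 0 in NS cells, at least 1.68-fold higher. Trim10 lost its call without the low-count filter, with DESeq2, with the replicate block, with that line alone and without each replicate number. Trim15 had 17 counts with IFNb and 1 in NS cells of MC38.7. Its call there was lost with that line fitted alone, without replicate 2 and without replicate 3. Counting changes of any size, IFNb raised 21 members and lowered 4 in B16.1 (14.6% and 14.3% of tested genes), 21 and 4 in LLC (17.6% and 21%), 19 and 7 in MC38.7 (13.8% and 16.8%) and 11 and 0 in KPC.2 (2.52% and 1.93%). It raised 10 and lowered 1 in Panc02.3 (3.33% and 2.82%), 10 and 2 in Renca (7.1% and 6.82%), 4 and 1 in CT26.2 (1.97% and 0.929%) and 0 and 1 in YUMMER1.7 (0.384% and 0.972%), the 1 being Trim21. At an unadjusted p under 0.05 in edgeR's test, 0 members rose there and 4 fell (Trim12a, Trim21, Trim34a and Trim56), where 3.6% and 6.82% of all genes did.

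**Figure D3:**
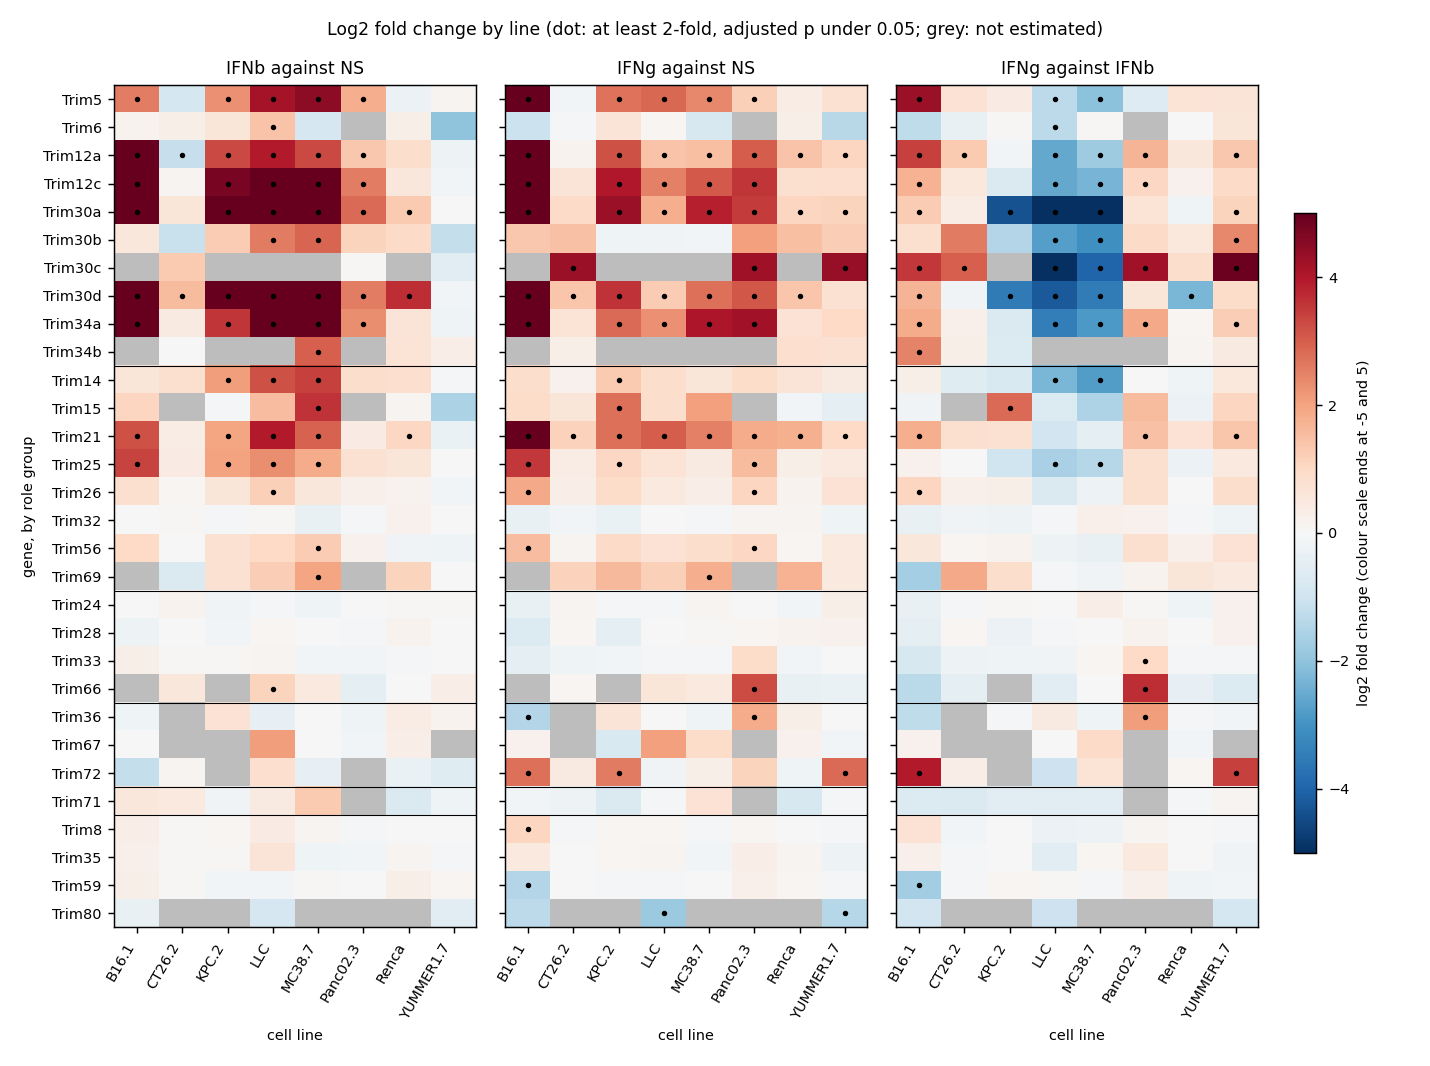
Log2 fold change of 30 named Trim members (rows) in each of 8 lines (columns) in 3 panels, one for each cytokine against NS and one for IFNg against IFNb; colour runs from -5 to 5, a dot marks at least 2-fold with adjusted p under 0.05, and grey marks values not estimated, which carry no dot. With IFNb, Trim30a is dotted in 6 lines, Trim30d in 7 and YUMMER1.7 has 0 dots, and in the IFNg against IFNb panel Trim5, Trim12a, Trim12c, Trim30a, Trim30d and Trim34a are below 0 in LLC and MC38.7 and above 0 in B16.1.

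With IFNg, 23 of the 56 tested members rose on the mean of lines and 8 fell, where 18.3% of all tested genes rose and 23.7% fell. At 2-fold or more, 12 rose and 0 fell, against 2.47% and 0.78% of all tested genes. The chromosome 7 block gave 7 rises among 10, the sensing group 7 rises and 2 falls among 13, the chromatin group 2 rises and 1 fall among 5, and the cytoskeleton and muscle group 2 rises among 6. The NHL group gave 1 fall among 3 and the other members 5 rises and 4 falls among 19. The falls in the sensing group were Trim32 and Trim65.

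Trim34a changed most with IFNg on the mean of lines, by 3.06 ± 0.08 (log2, SE, adjusted p = 1.5e-40), followed by Trim30a at 3.01 ± 0.10, Trim30d at 2.97 ± 0.12, Trim12c at 2.88 ± 0.05, Trim12a at 2.59 ± 0.09 and Trim21 at 2.39 ± 0.04. Trim34a measured 53.3, 51 and 60.4 CPM with IFNg in B16.1, against 0.125, 0.123 and 0.104 CPM in NS cells. In Panc02.3 it measured 73.3, 76.2 and 72.8 CPM with IFNg, against 3.56, 4.63 and 3.98 CPM in NS cells. In LLC it measured 3.15 and 3.82 CPM with IFNg, against 1.03, 0.379 and 0.807 CPM in NS cells. None of these groups overlapped, and the fold changes were 8.73 ± 0.25 in B16.1, 4.21 ± 0.14 in Panc02.3 and 2.3 ± 0.25 in LLC (log2, SE).

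Trim30a had its highest IFNg levels in YUMMER1.7 and B16.1. It measured 485, 473 and 471 CPM with IFNg in YUMMER1.7, against 253, 209 and 200 CPM in NS cells. In B16.1 it measured 478, 439 and 400 CPM with IFNg, against 2.37, 2.59 and 2.71 CPM in NS cells. Panc02.3 gave 205, 254 and 248 CPM with IFNg, against 20, 23 and 19.4 CPM in NS cells. The lines that had changed most with IFNb stayed low with IFNg. MC38.7 gave 2.11, 2.01 and 2.33 CPM with IFNg, against 0.0717, 0.259 and 0.0902 CPM in NS cells. KPC.2 gave 2.8, 4.81 and 3.1 CPM with IFNg, against 0.417, 0 and 0 CPM in NS cells. LLC gave 7.39 and 8.24 CPM with IFNg, against 1.98, 2.38 and 2.17 CPM in NS cells. Each still separated from NS, with log2 fold changes of 3.87 ± 0.51 in MC38.7, 4.31 ± 0.64 in KPC.2 and 1.83 ± 0.20 in LLC (SE), against 7.41 ± 0.15 in B16.1, 3.51 ± 0.12 in Panc02.3 and 1.11 ± 0.09 in YUMMER1.7. CT26.2 gave 188, 202 and 222 CPM with IFNg, against 121, 103 and 90.2 CPM in NS cells. Renca gave 101, 106 and 131 CPM with IFNg, against 56.7 and 49.3 CPM in NS cells, so that neither line's groups overlapped.

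Trim12a and Trim5 had their largest IFNg changes in B16.1. Trim12a measured 127, 145 and 130 CPM with IFNg there, against 0.249, 0.37 and 0.208 CPM in NS cells, a change of 8.88 ± 0.19 (log2, SE). Trim5 measured 16.7, 15.6 and 12.4 CPM with IFNg, against 0.249, 0.123 and 0 CPM in NS cells, a change of 6.84 ± 0.45 (log2, SE). Trim30c reached its highest IFNg levels in YUMMER1.7 and CT26.2. In YUMMER1.7 it measured 19.3, 19.4 and 16.5 CPM with IFNg, against 1.14, 0.959 and 0.619 CPM in NS cells, a change of 4.34 ± 0.47 (log2, SE, adjusted p = 2.3e-10). In CT26.2 it measured 8.22, 12.3 and 8.69 CPM with IFNg, against 0.395, 0.674 and 0.422 CPM in NS cells, a change of 4.30 ± 0.56 (log2, SE, adjusted p = 9.6e-08). In B16.1 it had 29 counts with IFNg and 0 in NS cells, at least 9.82-fold higher. Its mean over lines could not be estimated with IFNg, and KPC.2 had 0 counts in both of these groups.

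The block's median log2 fold change with IFNg was 7.20 in B16.1, 3.11 in Panc02.3, 3.0 in KPC.2, 2.51 in MC38.7 and 1.64 in LLC. It was 0.92 in YUMMER1.7, 0.84 in Renca and 0.66 in CT26.2. All genes had medians between -0.101 and 0.038. At 2-fold or more 8 of 10 members rose in B16.1, 7 in Panc02.3, 6 each in KPC.2, LLC and MC38.7, 3 each in Renca and YUMMER1.7 and 2 in CT26.2. With the line fitted alone, Trim30c and Trim34b lost their calls in B16.1, Trim30c in Panc02.3 and Trim12a in Renca. Trim5 lost its call in Panc02.3 without replicate 1 and without replicate 2, and in MC38.7 without replicate 2. In Renca, Trim12a also lost its call without replicate 2, and Trim30a without replicate 3. Trim30d lost its call there with limma-voom, without replicate 2 and without replicate 3.

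Trim21 rose at least 2-fold with IFNg in all 8 lines, by between 1.01 ± 0.08 in YUMMER1.7 and 5.01 ± 0.12 in B16.1 (log2, SE). The YUMMER1.7 change was 0.91, under 2-fold, without replicate 2. It measured 88.3, 99.6 and 94.1 CPM with IFNg in YUMMER1.7, against 50.3, 42.9 and 46.4 CPM in NS cells. In B16.1 it measured 119, 129 and 111 CPM with IFNg, against 3.49, 3.57 and 3.96 CPM in NS cells. Every IFNg library of these lines lay above every NS library. Trim25 rose in all 8 lines, by between 0.30 ± 0.09 in Renca and 3.55 ± 0.12 in B16.1 (log2, SE), and by 1.05 ± 0.03 on the mean (adjusted p = 2.6e-36). Trim26 measured 141, 143 and 143 CPM with IFNg in B16.1, against 33.5, 43.8 and 38.4 CPM in NS cells, and Trim56 measured 118, 118 and 107 CPM with IFNg, against 39.9, 34.6 and 42.4 CPM in NS cells. Their means over lines were 0.74 ± 0.02 and 0.73 ± 0.03 (log2, SE), and Trim14 changed by 0.73 ± 0.08. Trim15, linked to focal adhesions and RIG-I signalling, stood out in KPC.2 with 16.5, 14.8 and 15 CPM with IFNg, against 2.09, 2.27 and 2.58 CPM in NS cells, a change of 2.74 ± 0.52 (log2, SE, adjusted p = 2.4e-05). Its mean over lines of 1.38 ± 0.39, like those of Trim66 (1.26 ± 0.28) and Trim72 (1.21 ± 0.35, log2, SE), includes groups at 0 counts and is no bound. The Trim15 mean was 0.32 without replicate 3 and the Trim66 mean 0.87 without replicate 1, and both then lost their call, as did Trim72 without replicate 1 and without replicate 3.

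Members outside these groups are described mainly from B16.1 and Panc02.3, the lines with the largest shares of changed genes with IFNg (27.6% of all tested genes rose and 26.5% fell in B16.1, and 23.2% and 31.6% in Panc02.3). Summed marker levels also differed in these lines, untested. In B16.1 the 7 leukocyte markers summed to between 12.2 and 14.2 CPM with IFNg, against between 0.862 and 1.37 CPM in NS cells, with Cd68 the only 1 above 3 counts in either group and Adgre1, Itgam and Cd14 at 0 in both. Its 7 melanocyte markers, none at 0, summed to between 9124 and 9592 CPM with IFNg, against between 19998 and 20390 CPM in NS cells. In Panc02.3 the 5 fibroblast markers summed to between 12.2 and 14 CPM with IFNg, with Lum at 0, against between 298 and 407 CPM in NS cells, with none at 0. The part of these markers in the members' changes was not tested. Trim28 (chr7:12999114-13031035) measured 315, 304 and 329 CPM with IFNg in B16.1, against 521, 515 and 499 CPM in NS cells. In KPC.2 it measured 277, 261 and 280 CPM with IFNg, against 379, 378 and 359 CPM in NS cells. The groups did not overlap, and the changes were -0.69 ± 0.05 (adjusted p = 1.6e-18) and -0.45 ± 0.05 (log2, SE, adjusted p = 9.5e-11). In YUMMER1.7 Trim28 changed the other way, by 0.22 ± 0.05 (log2, SE), and its mean over lines of -0.06 ± 0.02 lost its call without a filter on low counts and without replicate 1. Trim33, a TIF1-family regulator of SMAD signalling, measured 132, 193 and 161 CPM with IFNg in Panc02.3, against 92.3, 80.4 and 85.5 CPM in NS cells. In B16.1 it measured 53.3, 47.6 and 44.1 CPM with IFNg, against 69.4, 68 and 67.3 CPM in NS cells. It thus rose in Panc02.3 (0.90 ± 0.08) and fell in B16.1 (-0.50 ± 0.09, log2, SE). Trim24, its relative and a nuclear receptor cofactor, changed by -0.39 ± 0.08 in B16.1 and 0.28 ± 0.07 in YUMMER1.7 (log2, SE). Trim66, another TIF1-family member, measured 3.22, 2.81 and 4.04 CPM with IFNg in Panc02.3, against 0.119, 0.331 and 0.498 CPM in NS cells, a change of 3.25 ± 0.41 (log2, SE, adjusted p = 9.5e-10).

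Among the remaining members, Trim59 measured 26.6, 28.2 and 25.9 CPM with IFNg in B16.1, against 78.4, 76.5 and 65.9 CPM in NS cells, a change of -1.45 ± 0.11 (log2, SE, adjusted p = 2.6e-18). Trim8, a regulator of SOCS1 and NF-kappaB, measured 91.8, 103 and 98.7 CPM with IFNg in the same line, against 47.1, 45.9 and 48 CPM in NS cells (1.06 ± 0.07, log2, SE). Several changes were named after their values were seen. Trim37, a centrosome and peroxisome ligase, measured 91.3, 74 and 78.8 CPM with IFNg in B16.1, against 182, 177 and 177 CPM in NS cells (-1.14 ± 0.07, log2, SE). Trim46, which organises microtubules in axons, measured 9.41, 12.3 and 12.4 CPM with IFNg, against 2.62, 2.59 and 1.98 CPM in NS cells of that line (2.26 ± 0.18). Trim63 measured 20.9, 20.1 and 21.3 CPM with IFNg, against 46.9, 47.5 and 50.3 CPM in NS cells of B16.1 (-1.21 ± 0.20). Trim7, a ligase that binds glycogenin, and Trim36 were the 2 members with opposite changes of at least 2-fold with IFNg, as 3.24% of all tested genes had. Trim7 measured 8.53, 6.56 and 12.1 CPM with IFNg in Panc02.3, against 29.7, 43 and 34.3 CPM in NS cells (-1.99 ± 0.19, log2, SE, adjusted p = 4.8e-14). In B16.1 it measured 3.4, 3.19 and 3.59 CPM with IFNg, against 1.99, 1.35 and 1.15 CPM in NS cells (1.19 ± 0.30, log2, SE). Trim36 was under 3 CPM in these lines, with changes of 1.85 ± 0.48 in Panc02.3 and -1.48 ± 0.53 in B16.1 (log2, SE), the B16.1 call being lost without replicate 1 and without replicate 2.

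Within lines, IFNg raised 18 members at least 2-fold and lowered 4 in B16.1, where 11.7% and 7.65% of all tested genes did so, and raised 15 and lowered 4 in Panc02.3, where 8.82% and 13.6% did. It raised 12 in KPC.2, 8 in MC38.7 and 7 in LLC, against 4.27%, 1.25% and 2.14% of tested genes, and lowered 1 in LLC (Trim80), against 0.353%. It raised 5 in YUMMER1.7, 4 in Renca and 3 in CT26.2, against 2.37%, 1.64% and 1.54%, and lowered 1 in YUMMER1.7 (also Trim80), against 1.55%. It lowered 0 in KPC.2, MC38.7, Renca and CT26.2, against 2.69%, 0.0991%, 0.291% and 0.248%. At any size, IFNg raised 25 members and lowered 8 in Panc02.3 (23.2% and 31.6% of tested genes), 21 and 9 in B16.1 (27.6% and 26.5%), 15 and 7 in KPC.2 (13.8% and 15.8%) and 14 and 3 in YUMMER1.7 (9.79% and 11%). It raised 11 and lowered 2 in LLC (6.65% and 4.6%), 11 and 0 in MC38.7 (3.89% and 0.886%), 10 and 2 in Renca (6.04% and 5.16%) and 8 and 4 in CT26.2 (4.97% and 3.86%). Trim80 measured 0.345 and 0.529 CPM with IFNg in LLC, against 1.46, 1.63 and 1.8 CPM in NS cells, and both of its falls lost their call without a filter on low counts and without each replicate number. Of the 4 members lowered in Panc02.3, Trim67 had 0 counts with IFNg and 8 in NS cells, at least 1.13-fold lower, and lost its call with DESeq2 and with limma-voom. Of the 15 raised there, Trim15 had 3 counts with IFNg and 0 in NS cells. Its call was lost with the replicate block, with the line fitted alone and without each replicate number. Trim69 had 4 counts with IFNg and 0 in NS cells, at least 3.16-fold higher. It lost its call with the line fitted alone, without replicate 1 and without replicate 2.

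**Figure D4:**
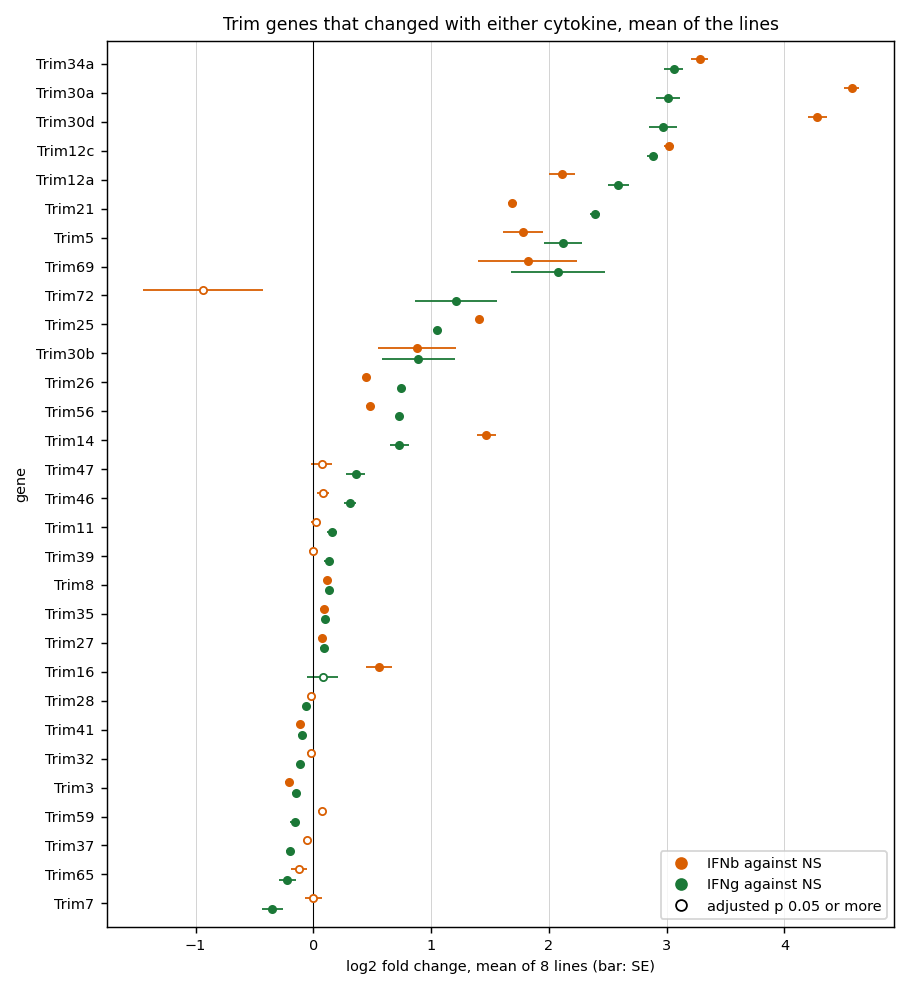
Log2 fold change on the mean of 8 lines, with SE, for 30 of the 33 Trim members that changed with IFNb or IFNg; open symbols did not pass adjusted p under 0.05, and Trim15, Trim30c and Trim66 are left out because 1 of their means was not estimated. Trim30a and Trim30d lie furthest right with IFNb (4.57 and 4.28), while Trim12a, Trim21 and Trim5 lie further right with IFNg (2.59, 2.39 and 2.12).

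The cytokines were set against each other directly at the given doses. On the mean of lines, 10 of the 56 tested members were higher with IFNg than with IFNb and 13 lower, where 18% and 18.7% of all tested genes were. At 2-fold or more, Trim72 was higher and Trim30a and Trim30d lower, against 1.41% and 0.613% of tested genes. Trim30a differed by -1.56 ± 0.04 (adjusted p = 8.3e-38) and Trim30d by -1.31 ± 0.05 (log2, SE, adjusted p = 2.6e-30). Trim14 differed by -0.74 ± 0.07 and Trim25 by -0.36 ± 0.03, while Trim21 differed by 0.70 ± 0.03, Trim12a by 0.48 ± 0.07, Trim26 by 0.29 ± 0.02 and Trim56 by 0.25 ± 0.03 (log2, SE). Within the same block, Trim12a was thus higher and Trim30a and Trim30d lower with IFNg. Trim5 differed by 0.34 ± 0.13 (log2, SE, adjusted p = 0.029), a call lost without a filter on low counts, with the replicate block and without each replicate number (adjusted p between 0.05 and 0.17 in these fits). The Trim72 mean of 2.15 ± 0.49 includes groups at 0 counts, is no bound, and lost its call without replicate 3 (1.74).

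These means covered opposite differences in single lines. Trim30a with IFNg against IFNb was -6.04 ± 0.13 in MC38.7, -5.30 ± 0.13 in LLC and -4.36 ± 0.19 in KPC.2, and 1.26 ± 0.09 in B16.1, 1.12 ± 0.09 in YUMMER1.7, 0.67 ± 0.10 in Panc02.3 and 0.37 ± 0.10 in CT26.2 (log2, SE). In LLC it measured 7.39 and 8.24 CPM with IFNg, against 323, 300 and 304 CPM with IFNb, whereas in B16.1 it measured 478, 439 and 400 CPM with IFNg, against 180, 184 and 187 CPM with IFNb. Trim12c and Trim34a had the same signs in MC38.7, LLC, KPC.2, B16.1, Panc02.3 and YUMMER1.7, with Trim34a at -3.44 ± 0.14 in LLC and 1.89 ± 0.11 in Panc02.3 (log2, SE). Trim12a was -2.54 ± 0.12 in LLC and 3.41 ± 0.10 in B16.1 (log2, SE). In LLC it measured 6.7 and 6.69 CPM with IFNg, against 38, 38.8 and 39.8 CPM with IFNb, and in B16.1 127, 145 and 130 CPM with IFNg, against 15.1, 11.4 and 10.6 CPM with IFNb. In all, 10 members had differences of at least 2-fold in opposite directions between lines: every member of the chromosome 7 block but Trim6, and Trim10 outside it, named after its values were seen. Over all tested genes the share was 4.62%. In MC38.7 Trim10 had 0 counts with IFNg and 5 with IFNb, at least 3.54-fold lower. That call was lost with the replicate block, with the line fitted alone and without each replicate number. The Trim10 call in KPC.2 was lost without replicate 2 and without replicate 3.

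At 2-fold or more, 12 members were lower with IFNg and 0 higher in LLC, where 3.02% and 1.55% of tested genes were. MC38.7 likewise had 12 lower and 0 higher, against 2.12% and 0.96%. B16.1 had 12 higher and 2 lower, against 7.79% and 6.41%, YUMMER1.7 7 higher and 0 lower, against 2.56% and 1.1%, and Panc02.3 8 higher and 3 lower, against 8.16% and 12.4%. KPC.2 had 3 higher and 2 lower, against 3.05% and 1.76%, CT26.2 2 higher and 0 lower, against 0.91% and 0.0681%, and Renca 0 higher and 1 lower, against 1.26% and 0.204%. The block's median difference was -3.03 in MC38.7, -2.76 in LLC and -0.73 in KPC.2, and 1.81 in B16.1, 1.12 in YUMMER1.7, 0.98 in Panc02.3, 0.48 in CT26.2 and 0.23 in Renca (log2), where all genes lay between -0.084 and 0.046. Outside the block, Trim25 differed by -1.64 ± 0.09 in LLC and -1.41 ± 0.08 in MC38.7 but by 0.80 in Panc02.3, Trim14 by -2.81 ± 0.20 in MC38.7, and Trim21 by -0.94 in LLC and 1.83 in B16.1 (log2, SE). Trim30d in Renca, at 1.15, 1.65 and 2.54 CPM with IFNg against 9.47, 9.66 and 8.38 CPM with IFNb, was the 1 member past 2-fold in that line.

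**Figure D5:**
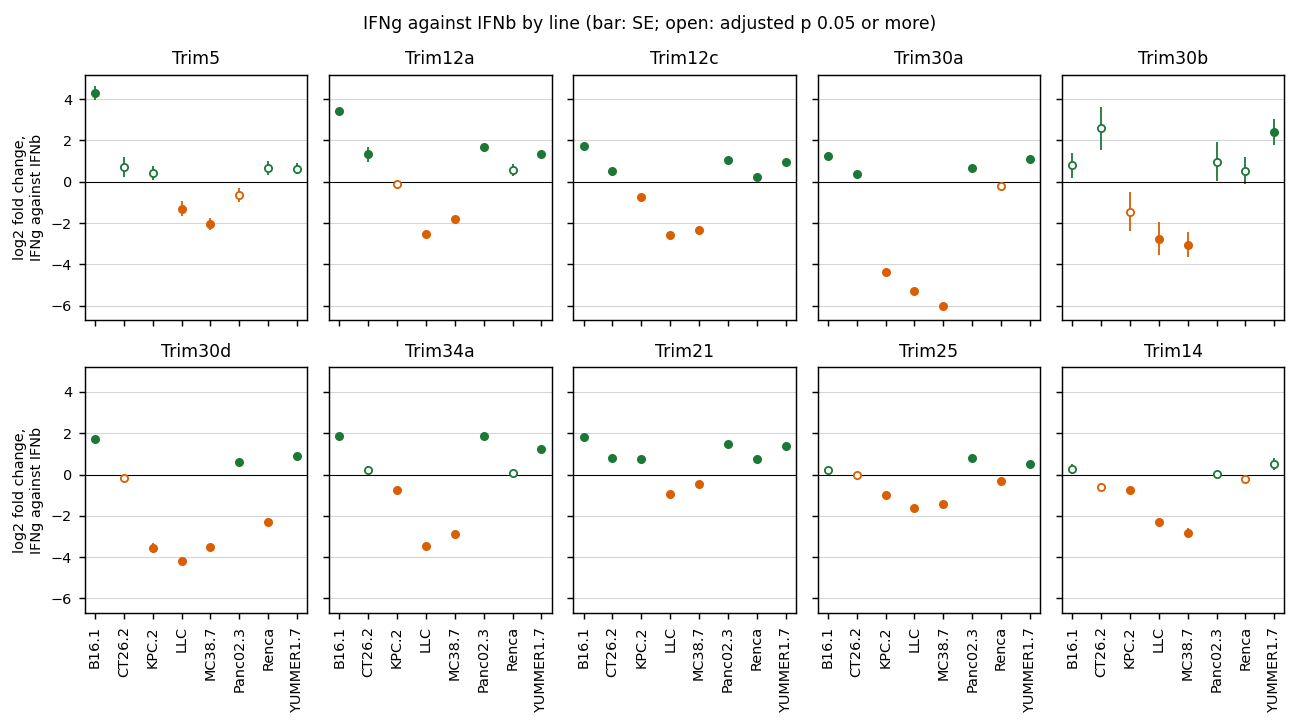
Log2 difference of IFNg against IFNb in each line, with SE, for 10 Trim members of the chromosome 7 block and the sensing group. Points for LLC and MC38.7 lie below 0 for every block member shown, down to -6.04 for Trim30a in MC38.7, and those of B16.1 lie above 0, up to 4.30 for Trim5.

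Responses differed between lines for 34 of the 56 tested members with IFNb (60.7%), where 48.2% of all tested genes differed. They differed for 38 with IFNg (67.9%), where 69.2% of all tested genes did, and for 41 with IFNg against IFNb (73.2%), where 70.1% did. With IFNg and with IFNg against IFNb the shares were near those of all tested genes. The smallest adjusted p with IFNb belonged to Trim30a (1.5e-44), Trim12c (1.0e-43) and Trim30d (1.9e-38), and with IFNg to Trim12c (7.7e-40), Trim30a (6.4e-36) and Trim12a (6.8e-33). Each line was also set against the mean of the other 7. With IFNb 113 of 448 pairs of member and line departed, where 10.5% of such pairs over all tested genes did. With IFNg 122 of 448 pairs departed, against 21.9%. For Trim30a with IFNb, YUMMER1.7 departed by -5.23 ± 0.13, CT26.2 by -4.56 ± 0.15 and MC38.7 by 6.09 ± 0.68 (log2, SE). The SE of 0.68 stands beside 0.23 for the MC38.7 change itself, and neither is a standard error taken from the fit.

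Members of the block share sequence, so kallisto could split reads between them. Shared 31-base words made up 69% of Trim34b, 68.5% of Trim34a, 53.3% of Trim5, 48.1% of Trim12c, 16% of Trim12a and 11.9% each of Trim30a and Trim30d. With paralogs summed, the Trim30 genes changed by 4.0 ± 0.05 with IFNb and 2.67 ± 0.07 with IFNg, and the Trim34 genes by 3.22 ± 0.07 and 3.01 ± 0.07 (log2, SE). The Trim12 genes changed by 2.68 ± 0.04 with IFNb and 2.70 ± 0.04 with IFNg, and did not differ past the test between cytokines (0.02 ± 0.03, log2, SE, adjusted p = 0.76), whereas Trim12c alone differed by -0.14 ± 0.03 and Trim12a alone by 0.48 ± 0.07. The part that the division of reads plays in the difference between Trim12c and Trim12a was not tested beyond this sum. Trim5 was in none of the sums, so the division of reads between Trim5 and Trim12c was not tested.

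Genes that work with TRIM proteins were described from lists on the mean of lines, as counts only, beside the 13% of all tested genes that rose and 17.3% that fell with IFNb and the 18.3% and 23.7% with IFNg. Of 5 tested TRIM proteins under other symbols, 2 rose and 1 fell with IFNb and 2 rose and 2 fell with IFNg. Pml, the scaffold of nuclear bodies, rose by 0.83 ± 0.02 with IFNb and 0.61 ± 0.02 with IFNg (log2, SE). Of 6 PML body genes, 5 rose with each cytokine and 0 fell, with medians of 1.7 and 1.9. Of 15 sensing partners, 5 rose and 2 fell with IFNb and 7 rose and 2 fell with IFNg, with medians of 0.09 and 0.08. Ddx58, which encodes RIG-I and is a target of Trim25, rose by 2.46 ± 0.03 with IFNb and 1.89 ± 0.03 with IFNg (log2, SE). Of 9 ubiquitin conjugation partners, 2 rose and 1 fell with IFNb and 4 rose and 2 fell with IFNg, with medians of 0.04 and 0.04. The median of all genes was -0.017 with IFNb and -0.037 with IFNg.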

How the data were processed

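RNA was sequenced from 70 libraries of cultured mouse cancer lines. Per the labels' protocols, total RNA was purified with Qiagen RNeasy columns and made into strand-specific libraries with the NEB Ultra II Directional kit. Per the submitters' processing notes, Trimmomatic 0.36 and kallisto were used, with the GRCm38 (mm10) build; whether quantification used strand is not given in the sources used here. The authors deposited estimated counts per gene, which were rounded to whole numbers. A 24-group model without replicate block was fitted with edgeR 4.0.16 (limma 3.58.1, R 4.3.3) after TMM scaling and filterByExpr, and p-values were adjusted over all 16147 tested genes. Rose and fell mean adjusted p under 0.05, with at least 2-fold where stated. Every SE was worked backwards from edgeR's F statistic and the log2 value, so it is not a standard error taken from the fit. SEs of related comparisons therefore need not combine. Values with an SE of 5 or more are not printed. Levels are CPM after TMM. Fits were tested on simulated data.

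Members, role groups and lists were chosen with earlier results of these data known. A further list of genes is not reported here. Named genes were members at least 2-fold changed on the mean of lines, the largest rise and fall in each line, the 3 with the smallest p between lines, a fixed list, the 5 highest per kilobase, and others said to be named after their values were seen. Alternatives were RLE scaling, no filter, DESeq2 1.42.0, limma-voom, a replicate block, each line alone, leaving out each replicate number, leaving out the shallowest library, and summed paralogs. Libraries were not treated as paired by replicate number. Of 68 pairs of deviations with equal numbers, 13 correlated above 0.1 (median 0.012, from -0.456 to 0.296). The check does not settle pairing within a single line. Within-group libraries differed by more than sampling noise (chi-square per degree of freedom between 1.539 and 16.9). Gene positions and transcript lengths are from GENCODE M21 and promoters from RefSeq.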

Additional observations from a re-analysis of the deposited data

Results flagged for a closer look

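Responses were flagged because a test of the difference between lines passed (adjusted p under 0.05, edgeR). This held for 34 of the 56 tested members with IFNb (60.7%, against 48.2% of all tested genes). It held for 38 with IFNg (67.9%, against 69.2%) and 41 with IFNg against IFNb (73.2%, against 70.1%), shares near those of all tested genes. With IFNb the smallest adjusted p between lines were those of Trim30a (1.5e-44), Trim12c (1.0e-43) and Trim30d (1.9e-38). With IFNg they were those of Trim12c (7.7e-40), Trim30a (6.4e-36) and Trim12a (6.8e-33).

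Members with changes of at least 2-fold in opposite directions in different lines were also flagged. There was 1 with IFNb (Trim12a), 2 with IFNg (Trim7 and Trim36) and 10 with IFNg against IFNb, 9 of them in the chromosome 7 block, where 0.434%, 3.24% and 4.62% of all tested genes had such changes. The other of the 10 was Trim10. Its MC38.7 call rested on 0 counts with IFNg and 5 with IFNb and was lost without each replicate number.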

How the results depend on the processing

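Numbers of changed members on the mean of lines kept within 1.5 times of the reported counts under every alternative run. With 1 replicate number left out they ran from 16 to 19 with IFNb (reported 20), from 26 to 28 with IFNg (31) and from 18 to 22 with IFNg against IFNb (23), with fewer libraries in each fit. Departures of single lines ran from 87 to 92 with IFNb (113) and from 90 to 102 with IFNg (122). DESeq2 gives no departures here, and unstimulated levels had no fit with a block.

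In CT26.2, 2 members changed at least 2-fold with IFNb. The count was 1, with Trim12a lost, without a filter on low counts, with limma-voom, with the replicate block, with each line alone and without KPC.2 IFNb replicate 3, and from 1 to 1 with a replicate left out. For IFNg against IFNb in CT26.2 the count of 2 was 1 with DESeq2, with the replicate block and with each line alone, and from 0 to 1 with a replicate left out. With a replicate left out, the count ran from 2 to 4 with IFNg in Renca (reported 4), from 3 to 6 with IFNg in YUMMER1.7 (6), from 3 to 5 for IFNg against IFNb in KPC.2 (5) and from 1 to 2 in Renca (1). Summing Trim12 paralogs turned the mean difference of IFNg against IFNb from -0.14 for Trim12c to 0.02. The cause was not tested beyond the settings' own construction. The replicate block changed these 2 counts and left 30 within 1.5 times; 10 of 240 values of single members lost their call, among them the Trim30b mean with IFNb (0.83). Depth limits the members near 0 counts, above all Trim30b, Trim30c, Trim34b, Trim66, Trim69 and Trim72.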
